A study of Mus musculus with 18 samples.

Results

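The genes described here encode proteins of the mitochondrial ribosome. They were taken by name, as every gene of the deposited table whose symbol starts with Mrpl or Mrps followed by a digit. That gave 78 of 22708 genes, 49 with Mrpl symbols (large subunit) and 29 with Mrps symbols (small subunit). The symbols predate the structures of the ribosome: Mrps30 and Mrps18a belong to the large subunit and are counted there below, and Mrps36 is now known as a subunit of the oxoglutarate dehydrogenase complex and is placed in neither subunit.

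Mitochondrial ribosomes translate the few messenger RNAs of mitochondrial DNA, which encode core subunits of the respiratory chain and of ATP synthase. Their ribosomal RNAs come from mitochondrial DNA, but all their proteins are encoded in the nucleus, made on cytosolic ribosomes and imported. Some of these proteins have bacterial counterparts, while others are specific to mitochondria and lie mostly on the surface of the particle. Eosinophils are granulocytes that finish dividing in the bone marrow, and those of the intestine outlive those of the blood.

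RNA was sequenced from eosinophils sorted from the small intestine of mice of 3 genotypes: wild-type (WT), Ahr-/- and Ahrr-/-. Ahr encodes the aryl hydrocarbon receptor (AHR), a transcription factor activated by dietary and microbial ligands, and Ahrr encodes the AHR repressor, which is itself induced by AHR. Each group held 6 samples, 3 from females (F1 to F3) and 3 from males (M1 to M3). The gate was CD11b+MHC-II-SiglecF+SSChi, and no treatment was labelled. The strain was labelled C57/BL6 throughout, and the methods of the study give an age of 6 to 14 weeks. Ahr-/- and WT mice were neither littermates nor cohoused, so genotype cannot be told apart from family and cage; for Ahrr-/- mice this is not given in the sources used here. Which part of either gene was deleted is not given there either.

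Total counts per sample (lowest, median, highest) were 3842977, 6022409 and 8149200 in WT, 6581818, 9647589 and 10284124 in the samples labelled Ahr-/-, and 8788867, 10371556 and 12046933 in those labelled Ahrr-/-. Values are on the authors' variance-stabilized log2 scale, on which a count of 0 reads 5.02. At the abundance of these genes a step of 1 in log2 ratio of counts moves the scale by 0.703 (median over genes), so the differences below understate the ratio of counts. WT F3 and Ahr-/- F3 stood apart by the number of genes with a count, 20244 and 19694, against 15146 to 17236 in the other 16 samples. Each count of genes below was also made without both of these samples.

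The targeted genes were read first. Ahr values (lowest, median, highest) were 13.40, 13.76 and 14.40 in WT, 14.15, 14.55 and 14.67 in the samples labelled Ahr-/-, and 13.03, 13.51 and 14.42 in those labelled Ahrr-/-. Ahr RNA was thus not low in any sample labelled Ahr-/-, and its values there lay in the upper part of the WT range or above it. The fitted difference, WT minus Ahr-/-, was −0.61 (SE 0.19; limma adjusted p = 0.0557, and 0.0298 without WT F2 or 0.0145 without WT M1). Ahrr values were 9.79, 10.12 and 10.39 in WT and 9.95, 10.37 and 10.93 in the samples labelled Ahrr-/-, overlapping ranges that differed by −0.28 (limma adjusted p = 0.683). In the samples labelled Ahr-/- they were 5.02, 5.25 and 5.79, a count of 0 in 2 samples and of at most 10 in any. That is 4.83 below WT (SE 0.14; limma adjusted p = 4.95e-12), with all 6 samples below all 6 of WT. RNA of neither targeted gene was thus low under its own label, and counts over a whole gene may not show a deletion of part of it. The study itself reports no Ahrr RNA in intestinal eosinophils when Ahr is deleted in eosinophils alone. The genotypes are written below as the samples are labelled, and every direction rests on those labels.

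3 genes known as AHR targets, chosen after values had been seen, were low in the samples labelled Ahr-/- and not in those labelled Ahrr-/-. Normalized counts of Cyp1b1, a cytochrome P450 enzyme, ran from 349 to 1134 in WT, from 0.758 to 4.71 in the samples labelled Ahr-/- and from 553 to 1339 in those labelled Ahrr-/-. Tiparp, which encodes an ADP-ribosyltransferase that restrains AHR, ran from 3467 to 7337, from 621 to 1081 and from 2640 to 9761 in the same order. Nqo1, a quinone reductase, ran from 206 to 284, from 26.4 to 64.9 and from 207 to 451. All 3 fell below WT in the samples labelled Ahr-/-, lower in 6 of 6 samples. Differences, WT minus Ahr-/-, were 4.07, 2.60 and 1.82 (limma adjusted p = 1.93e-08, 1.56e-07 and 1.27e-07). As the genes were chosen after values had been seen, these p-values describe them and are no independent test. Cyp1a1, which the study also names as a target, is not given here.

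The eosinophil label was checked with 8 marker genes, all in the table and none at 0 in any sample. Their summed normalized counts ran from 22795 (Ahrr-/- M3) to 72100 (Ahr-/- F2), and the most abundant was Alox15, a lipoxygenase. Ccr3, the eotaxin receptor, ran from 5286 to 15551 and Siglecf from 837 to 3113, while the granule gene Epx, transcribed mainly in bone marrow precursors, was low at 3.03 to 23.6. Prg2, another granule gene, ran from 36.0 to 925, with medians of 66.0 in WT, 627 in the samples labelled Ahr-/- and 89.8 in those labelled Ahrr-/-. Markers of intestinal epithelium were counted as well. Per the methods of the study, the epithelial layer was removed with EDTA and cells were enriched with anti-CD11b beads before sorting, and the study describes barrier genes such as Reg3b and Tff3 as expressed by eosinophils. Which cells this RNA came from was not tested. Summed enterocyte markers (10 genes, led by Sis, the sucrase-isomaltase) had medians of 4846 in WT, 4486 in the samples labelled Ahr-/- and 14004 in those labelled Ahrr-/-. Their highest sums were in Ahrr-/- M1 (20776), Ahrr-/- F3 (19645), Ahrr-/- M3 (19257) and WT F1 (10285). Goblet cell markers (6 genes, led by Muc2) had medians of 10308, 5377 and 20449, and Paneth cell markers (6 genes, led by Lyz1) medians of 5244, 6002 and 15374. In sorted bulk samples, fewer cells of a type and less RNA per cell cannot be told apart.

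Members of the mitochondrial ribosome took a small share of the counts. Over all samples it was 0.130%, from 0.0904% in Ahr-/- F2 to 0.191% in Ahrr-/- M1 and M3, against 2.30% for 76 cytosolic ribosomal protein genes and 0.649% for 96 nuclear oxidative phosphorylation genes. Of the 78 members, 76 reached the minimum for testing (a mean at least 1 above the lowest value of the table), with mean normalized counts of 33.8 to 425 (median 127). The other 2 were Mrpl53, with 4 counts over all 18 samples and none in 14 of them, and Mrps34, with 61 counts and none in 5. Both proteins belong to every mammalian mitochondrial ribosome. Read per kilobase of annotated transcript, the highest mean levels were those of Mrpl33 (890 normalized counts per kilobase), Mrps21 (508.5) and Mrps33 (392), and the lowest of those tested were Mrps25 (15.6), Mrps26 (18.2) and Mrpl47 (20.3), with a median of 76.9. The spread over the 18 samples was close to that of other genes: the median SD of a member's value was 0.31 against 0.29 for all genes tested.

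The mean value of the 76 members was then read in each sample. It was 7.20, 7.37 and 7.77 in WT (lowest, median, highest; mean 7.44, SD 0.21, n = 6), 7.25, 7.37 and 7.44 in the samples labelled Ahr-/- (mean 7.37, SD 0.07, n = 6) and 7.24, 7.54 and 8.04 in those labelled Ahrr-/- (mean 7.58, SD 0.28, n = 6). The groups overlapped, and those labelled Ahr-/- were the tightest. Ahrr-/- M1 stood highest at 8.04, followed by WT F1 at 7.77 and Ahrr-/- M3 at 7.75, while WT F2 at 7.20 was lowest. Ahrr-/- M1 was the highest of all 18 samples for 54 of the 76 members, and Ahrr-/- M3 for 7 more. These 3 highest samples had enterocyte sums of 20776, 10285 and 19257, and WT M3 and Ahrr-/- F3, next in the mean of the members (7.62 and 7.59), had sums of 7230 and 19645. The part of RNA from other cells in the level of the members was not tested.

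**Figure D1:**
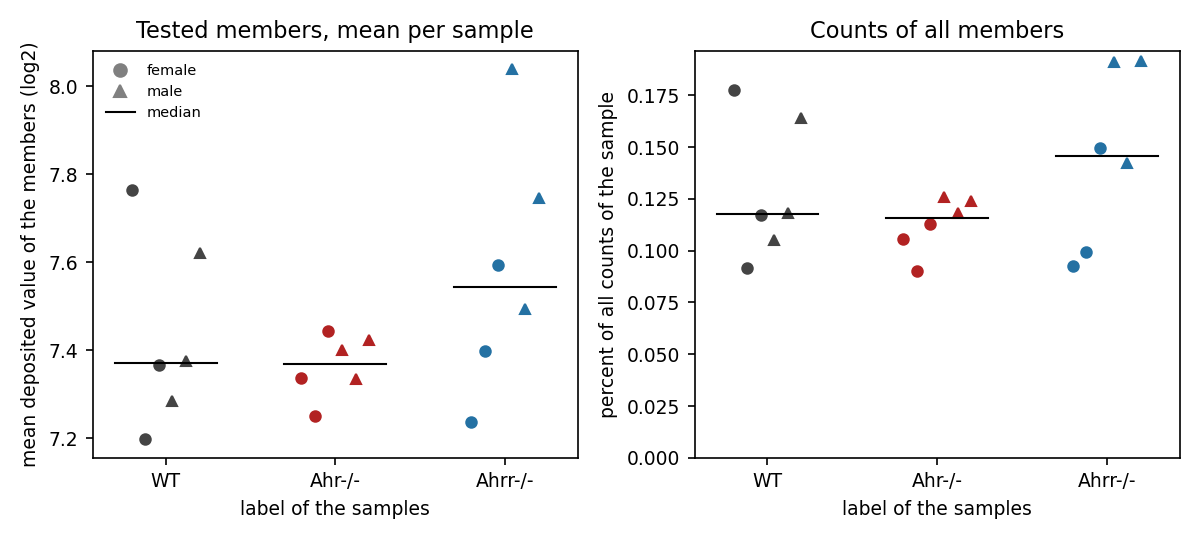
Left, mean value of the 76 tested mitochondrial ribosomal protein genes in each of the 18 samples, on the deposited log2 scale; right, counts of all 78 members as a percent of all counts of the sample; circles are females, triangles males and lines medians. In the left plot the samples labelled Ahr-/- lie between 7.25 and 7.44 while Ahrr-/- M1 reaches 8.04, and in the right plot Ahrr-/- M1 and M3 reach 0.191%.

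WT samples were first compared with those labelled Ahr-/-. None of the 76 members passed the test (limma with sex as a covariate, adjusted p below 0.05 over all 11346 genes tested), while 1003 genes did, 8.84% of those tested (623 genes without Ahr-/- F1, 586 without both WT F3 and Ahr-/- F3). Leaving out samples called no member either. Unadjusted p was below 0.05 for 4 members (5.26%, against 23.3% of all genes), and limma voom on counts also called 0. That count of 4 was 13 without WT F2, 8 without WT M1, and 2 without Ahr-/- F1, F2 or M1. No member had groups that did not overlap, against 4.51% of all genes. Values were higher in WT for 50 members and lower for 26, with a median difference of 0.09 against 0.00 over all genes tested, and without WT F1 the split was 39 to 37 and the median 0.01. Differences ran from −0.26 to 0.40, and the 95% interval stayed within a 2-fold difference on the deposited scale for all 76, or for 69 as a ratio of counts by limma voom.

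The largest differences toward WT were those of Mrpl50 (0.40; limma adjusted p = 0.132), Mrps31 (0.36; 0.319), Mrps22 (0.34; 0.234) and Mrpl20 (0.32; 0.117). Toward Ahr-/- they were those of Mrps26 (−0.26; 0.221), Mrps30 (−0.20; 0.476), Mrpl33 (−0.20; 0.477) and Mrpl37 (−0.18; 0.531). Mrpl1, a large-subunit protein with a bacterial counterpart, had the lowest adjusted p (0.32; 0.0839). None of these 9 members passed. By role, the median difference was 0.03 for 16 small-subunit proteins with bacterial counterparts, 0.17 for 9 mitochondria-specific ones, 0.10 for 30 large-subunit proteins with bacterial counterparts and 0.11 for 20 mitochondria-specific ones. No class had a called member. In this comparison 5 of 6 goblet cell markers were called higher in WT (3 without WT F3 or M2 or Ahr-/- F2, F3, M2 or M3, and 2 without both samples with the most genes), and 2 of 7 eosinophil markers higher in Ahr-/- (1 without WT M3 or Ahr-/- F1, F2, F3 or M3). Enterocyte markers gave 0 of 10 called by limma, with 6 values higher in WT and 4 lower (median 0.14). Paneth cell markers gave 0 of 6, with 5 higher in WT and 1 lower (median 0.38). Unadjusted p was below 0.05 for 3 and 1 of them, and limma voom called 0. Macrophage markers gave 2 of 9 called higher in Ahr-/- (1 or 2 with 1 sample left out). That list was split, with 4 values higher in WT and 5 lower (median −0.05). Dividing cell markers gave 1 of 7 called higher in WT (0 to 3, all 7 values higher in WT, median 0.49). Of 8 fibroblast and endothelial markers 3 were tested, all 3 with higher values in WT, and 1 was called (1). Pecam1 was the most abundant of these 8, with medians of 3174 in WT and 2023 in Ahr-/-. The next, Col3a1, had 30.7 and 21.1. The part of these marker lists in the values of the members was not tested.

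**Figure D2:**
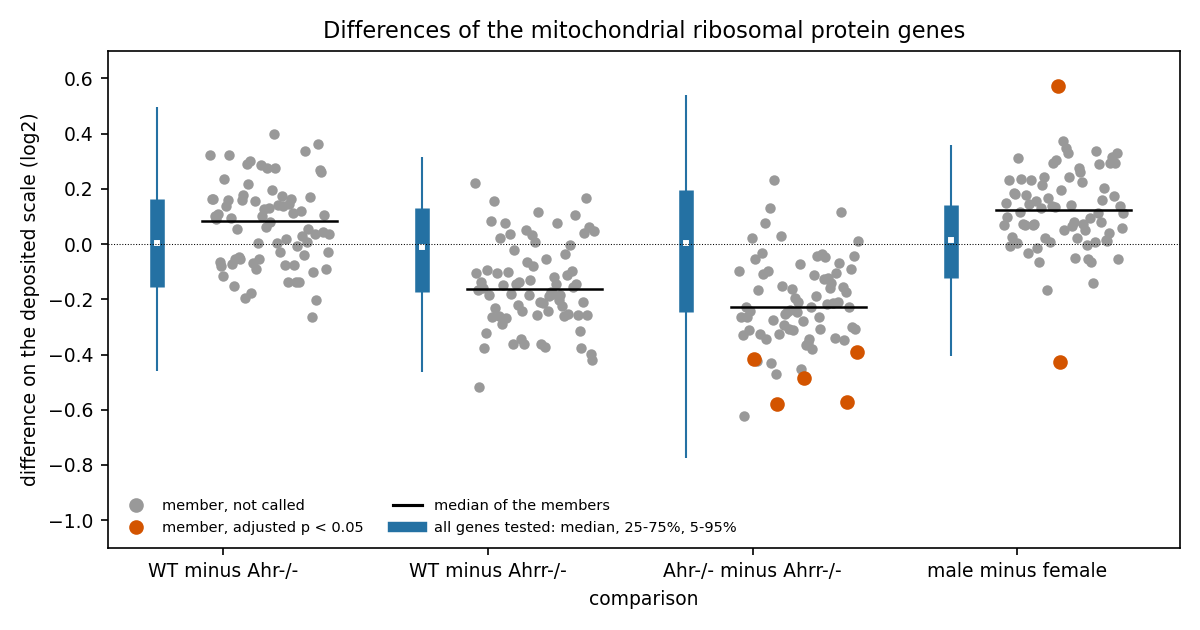
Fitted differences of the 76 tested members in the genotype and sex comparisons, on the deposited log2 scale, beside the median, interquartile range (thick bar) and 5 to 95% range (thin line) of all genes tested; orange points passed the test. The medians of the members are 0.09 for WT minus Ahr-/-, −0.16 for WT minus Ahrr-/-, −0.23 for Ahr-/- minus Ahrr-/- and 0.12 for male minus female.

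WT samples were then compared with those labelled Ahrr-/-. Again 0 of 76 members were called by limma (unadjusted p below 0.05 for 3, 3.95% against 7.39% of all genes; limma voom 0), where 9 of 11546 genes were called, 0.0779%. The count of genes was 4 or 5 without any one of WT F1, F2, M2 or M3 or Ahrr-/- F2, F3, M2 or M3, and 25 without Ahrr-/- F1. Members at unadjusted p below 0.05 numbered 12 without WT F1, 8 without Ahrr-/- F1 and 1 without WT M1 or M2. Values were lower in WT for 60 members and higher for 16, with a median difference of −0.16 against −0.01 over all genes, and the median moved to −0.26 without WT F1 and to −0.10 without Ahrr-/- M1. Differences ran from −0.52 to 0.22, with the 95% interval within a 2-fold difference for 75 of 76 on the deposited scale and for 49 as a ratio of counts. The groups of 6 did not overlap for 1 member, Mrps7, against 0.459% of all genes.

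Mrps7, a small-subunit protein with a bacterial counterpart, had values of 6.88, 7.19 and 7.33 in WT and 7.39, 7.48 and 7.81 in the samples labelled Ahrr-/-. All 6 of the latter lay above all 6 of WT, but the difference of −0.42 did not pass (limma adjusted p = 0.542). Mrpl12, the stalk protein of the large subunit, had the largest difference (−0.52; limma adjusted p = 0.671), followed after Mrps7 by Mrps6 (−0.40; 0.671) and Mrps30 (−0.38; 0.671). In the other direction the largest were Mrpl1 (0.22; 0.671), Mrps35 (0.17; 0.778), Mrpl20 (0.16; 0.805) and Mrpl50 (0.12; 0.889), the last turning sign without WT F1 (−0.04) or Ahrr-/- F2. None of these passed either. By role, in the same order as above, the median differences were −0.16, −0.10, −0.16 and −0.20, with 13 of 16, 6 of 9, 24 of 30 and 16 of 20 members lower in WT. Enterocyte and Paneth cell markers, whose sums were higher in the samples labelled Ahrr-/-, gave 0 of 10 and 0 of 6 called by limma (4 and 6 at unadjusted p below 0.05; limma voom 0). Values were lower in WT for all 10 enterocyte (median −0.83), all 6 Paneth cell (−1.45), all 6 goblet cell (−0.62), all 4 plasma and B cell (−0.48), 6 of 7 fibroblast and endothelial (−0.73), 6 of 7 dividing cell (−0.21) and 8 of 10 macrophage markers (−0.60), none of them called by limma (0, 3, 4, 0 and 3 at unadjusted p below 0.05 in the last 5 lists, limma voom 0). Neutrophil markers were the only marker list with a call, 2 of 4 tested higher in Ahrr-/- by limma and by limma voom (median −1.22), also without any single sample. The list holds 8 genes and was led by S100a8 and S100a9, with medians of 98.1 and 175 in WT and 535 and 867 in Ahrr-/-. Ly6g, Elane, Mpo and Camp had a count of 0 in 13, 17, 14 and 13 of the 18 samples. Ngp had medians of 20.8 in WT and 9.67 in Ahrr-/-, and Ltf 11.8 and 16.4. The part of these markers' cells in the values of the members was not tested.

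The mutant groups were also set against each other, a comparison that shares its samples with both of those above, so that the 3 sets of differences are not independent. Here 5 of 76 members were called by limma, all higher in the samples labelled Ahrr-/-: Mrpl35, Mrps7, Mrps31, Mrpl18 and Mrpl51. That is 6.58% of the members, against 14.9% of 11474 genes called in either direction and 8.04% called higher in Ahrr-/-, so the share called was no larger than among all genes. Unadjusted p was below 0.05 for 15 members (19.7%, against 32.8% of all genes), and limma voom called 5. That count of 15 was 27 without Ahrr-/- F1, 23 without Ahr-/- F3, 10 without Ahrr-/- M1 and 9 with quantile normalization. Values were lower in the samples labelled Ahr-/- for 69 members and higher for 7, with a median difference of −0.23 against 0.00 over all genes (−0.14 without Ahrr-/- M1). With samples centred on their medians the split was 63 to 13 and with quantile normalization 60 to 16, where 3 and 2 members were called. Among all genes called, the share higher in Ahr-/- moved from 46.0% to 54.3% and 55.7% under these scalings. The groups did not overlap for 2 members, Mrps7 and Mrpl54, against 4.61% of all genes.

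The number called depended on single samples. Only Mrpl35 was called when any one of Ahr-/- F1, F2, M1, M2 or M3 or of Ahrr-/- F3 or M3 was left out, and Mrpl35 and Mrps7 without Ahrr-/- M1. Without Ahr-/- F3 the count was 7, adding Mrpl12 and Mrpl34. WT F3 is not in this fit, so leaving out both samples with the most genes gives the same result. Without Ahrr-/- F1 it was 9, and without Ahrr-/- M2 it was 10. The count over all genes moved with the same samples, to between 818 and 1001 without any one of the 7 that left only Mrpl35, and to 2574 without Ahrr-/- F1.

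Mrpl35, a large-subunit protein with a bacterial counterpart, had values of 6.81, 7.05 and 7.37 in the samples labelled Ahr-/-, 7.21, 7.63 and 8.14 in those labelled Ahrr-/- and 6.97, 7.35 and 7.49 in WT. The mutant groups overlapped only through 1 high sample labelled Ahr-/-, M1, and Ahrr-/- M1 was highest of all. The difference, Ahr-/- minus Ahrr-/-, was −0.58 (SE 0.14, 95% interval −0.87 to −0.29; limma adjusted p = 0.0141), with 6 of 6 Ahrr-/- samples above the Ahr-/- mean. It passed without any single sample and under the 10 other alternatives, with adjusted p of 0.00864 to 0.0413.

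Mrps7 had values of 7.08, 7.17 and 7.21 in the samples labelled Ahr-/- and those given above in the others. Its 6 Ahrr-/- samples all lay above the 6 Ahr-/- samples, which were close together. The difference was −0.39 (SE 0.11; limma adjusted p = 0.0288), and it did not pass without any one of Ahr-/- F1, F2, M1, M2 or M3 or Ahrr-/- F3 or M3 (adjusted p up to 0.0741). Mrps7 overlaps Gga3 and Mif4gd in the annotation, so that reads of these genes may not be separable.

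Mrps31, a mitochondria-specific small-subunit protein, had values of 7.41, 7.64 and 7.93 in the samples labelled Ahr-/-, 7.49, 8.41 and 8.83 in those labelled Ahrr-/- and 7.40, 7.92 and 8.99 in WT. Here the groups overlapped widely: Ahrr-/- F1 and F2 lay within the Ahr-/- range, and the highest sample of all was WT F1. The difference was −0.57 (SE 0.17; limma adjusted p = 0.0409), with 4 of 6 Ahrr-/- samples above every Ahr-/- sample.

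Mrpl18, a large-subunit protein with a bacterial counterpart, had values of 7.59, 7.89 and 8.14, then 7.85, 8.35 and 8.82, and in WT 7.50, 8.11 and 8.64, in the same order of groups. Mrpl51, a mitochondria-specific protein of the large subunit, had values of 6.96, 7.45 and 7.78, then 7.42, 8.0 and 8.35, and in WT 6.95, 7.89 and 8.19. For both genes 4 of 6 Ahrr-/- samples lay above every Ahr-/- sample, and Ahrr-/- M1 was the highest sample. The differences were −0.42 (SE 0.13; limma adjusted p = 0.0445) and −0.49 (SE 0.15; limma adjusted p = 0.0461). Mrps31, Mrpl18 and Mrpl51 lost the call without any one of Ahr-/- F1, F2, M1, M2 or M3 or Ahrr-/- F3, M1 or M3, with adjusted p up to 0.0974, 0.103 and 0.106. Under the alternatives other than leaving out a single sample, Mrps7 was called in 8 of 10, Mrps31 in 7 of 10, Mrpl18 in 6 of 11 and Mrpl51 in 5 of 10. Mrpl18 overlaps Tcp1.

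**Figure D3:**
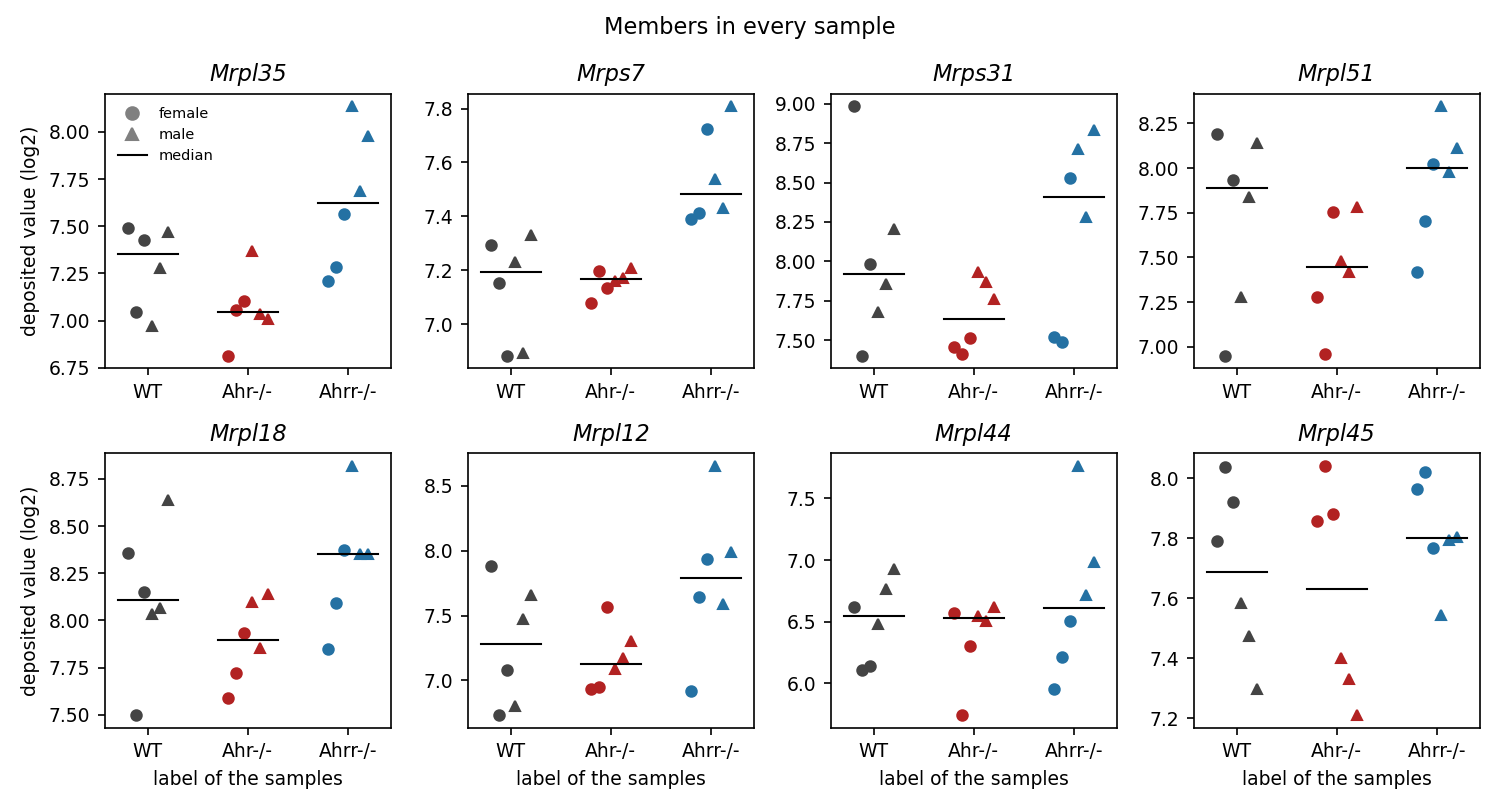
Values of 8 members in every sample, by group, on the deposited log2 scale: the 7 called in any comparison (Mrpl35, Mrps7, Mrps31, Mrpl51, Mrpl18, Mrpl44 and Mrpl45) and Mrpl12. Mrps7 separates the samples labelled Ahrr-/- from the other groups, while the ranges overlap for Mrps31.

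Of the members that missed the threshold, 2 are given in full, Mrpl12 for the size of its difference and Mrpl54 for groups that did not overlap. Mrpl12 had values of 6.94, 7.13 and 7.57 in the samples labelled Ahr-/- and 6.92, 7.79 and 8.66 in those labelled Ahrr-/-, the largest difference of any member (−0.62, SE 0.21; limma adjusted p = 0.0600). Its lowest sample of all was WT F2 at 6.73, and Ahrr-/- F1 also lay below every Ahr-/- sample. It passed without Ahr-/- F3 or Ahrr-/- F1 or M2 (lowest adjusted p 0.0123). Mrpl54, a mitochondria-specific large-subunit protein, had values of 6.50, 6.61 and 6.75 against 6.80, 6.89 and 7.35, a difference of −0.36 (limma adjusted p = 0.0546), and it passed without Ahrr-/- F1 or M2 (0.0444 and 0.0419). Toward Ahr-/- the largest differences were those of Mrpl33 (0.23; limma adjusted p = 0.303), Mrpl3 (0.13; 0.480), Mrps26 (0.12; 0.487) and Mrpl24 (0.08; 0.664), none of which passed.

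By role, calls fell in each class: 1 of 16 small-subunit proteins with bacterial counterparts (Mrps7), 1 of 9 mitochondria-specific ones (Mrps31), 2 of 30 large-subunit proteins with bacterial counterparts (Mrpl35, Mrpl18) and 1 of 20 mitochondria-specific ones (Mrpl51). The median differences were −0.17, −0.12, −0.26 and −0.25, and 15, 8, 26 and 19 members were lower in the samples labelled Ahr-/-. Differences between these classes were not tested. In the same comparison markers of other cells differed as well. 6 of 6 Paneth cell markers, 5 of 6 goblet cell markers and 2 of 10 enterocyte markers were called higher in Ahrr-/-, and 4 of 7 eosinophil markers higher in Ahr-/-. The goblet count was 2 without Ahr-/- M2 or M3 and 3 without Ahr-/- M1 or Ahrr-/- M3. The enterocyte count was 0 without Ahr-/- M3, 1 without Ahr-/- F1, F2, M1 or M2 or Ahrr-/- M1 or M3, 4 without Ahr-/- F3, 5 without Ahrr-/- F2 and 6 without Ahrr-/- F1. The eosinophil count was 2 without Ahr-/- M3. Also called higher in Ahrr-/- were 4 of 7 dividing cell markers (1 to 5 with 1 sample left out; all 7 values higher in Ahrr-/-, median −0.60), 2 of 4 neutrophil markers (2), 2 of 4 plasma and B cell markers (1 or 2) and 2 of 7 fibroblast and endothelial markers (0 to 6). Of 10 macrophage markers 1 was called higher in Ahr-/- (0 to 2) and 1 higher in Ahrr-/- (0 to 4). Their part in the differences of the members was not tested.

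Promoters are shown for 4 of the 7 members called in any comparison, since the transcripts of Mrpl35, Mrps7 and Mrpl51 differed together in 1 direction and that of Mrpl44 differed between sexes (below). They are those whose window lies outside the RefSeq span of the gene. The windows of Mrpl18, Mrps31 and Mrpl45 lie inside that span and are only counted. Each line gives the 250 bases before the RefSeq start of transcription, 5′ to 3′ on the strand of the gene, in build GRCm38.p6, just outside the first exon of that transcript. The Mrps7 window reaches the start of Gga3, 224 bases away on the other strand, and Mrpl51 starts 614 bases from Ncapd2. The positions are chr6:71823785-71824034 (minus strand) for Mrpl35, chr11:115603890-115604139 (plus) for Mrps7, chr6:125191950-125192199 (plus) for Mrpl51 and chr1:79775768-79776017 (plus) for Mrpl44. Capitals mark matches on either strand to GCGTG, the core bound by AHR with its partner ARNT (CACGC on the other strand), to CCGGAAG (ETS factors), to GCGCATGC (NRF1) and to AAGATGGC (YY1).
Mrpl35: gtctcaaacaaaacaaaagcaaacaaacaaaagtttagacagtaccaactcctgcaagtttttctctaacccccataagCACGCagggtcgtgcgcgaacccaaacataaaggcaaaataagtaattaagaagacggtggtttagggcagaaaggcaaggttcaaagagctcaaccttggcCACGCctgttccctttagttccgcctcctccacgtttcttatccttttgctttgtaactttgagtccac
Mrps7: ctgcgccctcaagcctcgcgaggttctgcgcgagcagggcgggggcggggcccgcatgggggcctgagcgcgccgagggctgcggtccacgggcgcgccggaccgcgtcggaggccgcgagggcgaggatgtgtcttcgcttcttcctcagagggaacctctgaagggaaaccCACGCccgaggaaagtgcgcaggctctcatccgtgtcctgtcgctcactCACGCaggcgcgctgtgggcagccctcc
Mrpl51: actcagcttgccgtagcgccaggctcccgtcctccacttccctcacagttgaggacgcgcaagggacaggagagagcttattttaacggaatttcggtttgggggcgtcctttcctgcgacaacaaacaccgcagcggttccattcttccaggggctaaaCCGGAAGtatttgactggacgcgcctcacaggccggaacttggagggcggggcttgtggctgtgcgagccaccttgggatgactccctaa
Mrpl44: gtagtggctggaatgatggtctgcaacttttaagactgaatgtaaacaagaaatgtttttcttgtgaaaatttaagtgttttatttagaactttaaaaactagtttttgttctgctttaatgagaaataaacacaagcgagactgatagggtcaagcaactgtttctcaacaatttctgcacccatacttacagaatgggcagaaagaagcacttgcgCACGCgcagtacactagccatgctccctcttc

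Mrpl35 and Mrps7 each held 2 matches to the AHR core, Mrpl44 held 1, and Mrpl51 held 1 ETS match. Of the other called members, Mrpl45 held 3 AHR cores, Mrpl18 held 1 AHR core and 1 ETS match, and Mrps31 none of the 4 motifs. RefSeq promoters matched 69 of the 78 members. The AHR core was as frequent among them (47.8%) as among promoters of all genes tested (49.6%; 30.9% of all 27025 promoters). The ETS motif was found in 26.1% of the members against 16.3% of genes tested and 7.83% of all promoters. NRF1, a regulator of nuclear genes for mitochondria, had its motif in 11.6% against 5.04% and 2.56%, and YY1 in 5.80% against 2.54% and 1.83%. The GC box GGGCGG was in 47.8% of members, 62.9% of genes tested and 35.4% of all, CCAAT in 36.2%, 40.4% and 37.5%, the E-box CACGTG in 7.25%, 9.97% and 6.86%, and TATAAA in 7.25%, 8.22% and 14.3%. Letter matches describe these windows and are no measure of binding. Of the 69 promoters, 26 (37.7%) had the start of a gene on the other strand within 1000 bases, against 19.8% of genes tested and 12.3% of all; Mrpl46 and Mrps11 start 42 bases from each other, and Mrpl43 lies 116 bases from Twnk, the mitochondrial helicase gene. No member lies on chromosome 12, which carries Ahr. The member nearest to Ahrr on chromosome 13 is Mrpl36, 0.879 Mb away.

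Sexes were compared over all 18 samples with genotype as a covariate. By limma, 2 of 76 members were called, Mrpl44 higher and Mrpl45 lower in males, where 351 of 11468 genes were called, 3.06%. The count was 3 without WT F1, adding Mrps30, and 1 (Mrpl45) without both samples with the most genes or without any sample other than WT F1, WT M1, Ahr-/- F1 and Ahrr-/- F3. Over all genes it was 733, 595 and 577 without WT F1, WT M1 or Ahrr-/- F3, and 142 to 211 without any one of WT F2 or M3, the Ahr-/- samples except F3, or Ahrr-/- F1, F2 or M3. Unadjusted p was below 0.05 for 11 members (14.5%, against 18.7% of all genes), and limma voom called 2. Those 11 became 25 without WT F1, 17 without WT M1 and 4 without WT M3. They became 5 without WT F2, Ahr-/- F2, Ahrr-/- F1 or Ahrr-/- M1. Values were higher in males for 64 members and lower for 12 (56 to 20 with median centring or quantile normalization), with a median of 0.12 against 0.01 over all genes, or 0.05 without Ahrr-/- M1. Values of all 10 enterocyte and all 6 goblet cell markers were also higher in males (medians 0.54 and 0.42), with 0 called by limma (3 and 0 at unadjusted p below 0.05; limma voom 0). So were all 7 dividing cell markers (median 0.32) and 6 of 7 fibroblast and endothelial markers (0.11), with 0 called by limma (0 and 0 at unadjusted p below 0.05; limma voom 0). Macrophage markers gave 2 of 10 called higher in males (0 to 4 with 1 sample left out), neutrophil markers 1 of 4 lower (1 or 2; 0 without both samples with the most genes) and mast cell markers 1 of 1 lower (0 or 1), and their part in the values of the members was not tested. Within WT samples alone the split was 34 to 42 and the median −0.02, with 0 members called by limma and 1 at unadjusted p below 0.05.

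Mrpl45, which anchors the ribosome to the inner membrane, had values of 7.21, 7.47 and 7.81 in males and 7.77, 7.92 and 8.04 in females (lowest, median, highest of 9). The sexes overlapped only at the edge, where Ahrr-/- F3 was the lowest female and Ahrr-/- M2 and M3 the highest males. The difference, male minus female, was −0.43 (SE 0.09; limma adjusted p = 0.0139), with 9 of 9 females above the male mean, and it passed without any single sample. It did not pass in WT samples alone (adjusted p = 0.998, with 3 samples a sex).

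Mrpl44, a large-subunit protein with a ribonuclease III-like fold, had values of 6.48, 6.72 and 7.77 in males and 5.74, 6.22 and 6.62 in females. Ahrr-/- M1 was the highest sample and Ahr-/- F2 the lowest, and all 9 males lay above the female mean. The difference was 0.57 (SE 0.15; limma adjusted p = 0.0460). The call was lost without any 1 of 14 samples, and kept only without WT F1, WT M1, Ahr-/- F1 or Ahrr-/- F3 (adjusted p from 0.0198 to 0.109; 0.998 in WT samples alone). Mrpl44 overlaps Wdfy1. Whether the difference between WT and Ahr-/- depends on sex was tested as an interaction, where limma called 0 of 76 members and 0 of 11346 genes. Unadjusted p was below 0.05 for 2 members (2.63%, against 4.70% of all genes), Mrpl50 (−0.65) and Mrpl32 (0.54). Both had a limma adjusted p = 0.954, and limma voom called 0 members. That count of 2 was 5 without WT F2 and 0 without WT M1, Ahr-/- F2 or Ahr-/- M3.

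Most members varied together across samples. Over the 18 samples, the correlation of a member with the mean of the other members had a median of r = 0.762, or 0.728 on deviations from the means of genotype and sex, and 86.8% of 2850 pairs of members were positively correlated (median r = 0.528). These samples share library depth, normalization and the mix of cells sorted. Without Ahrr-/- M1 the median was 0.682. The closest followers were Mrpl12 (r = 0.936), Mrpl30 (0.922), Mrpl34 (0.919) and Mrpl41 (0.917). At the other end were Mrpl33 (−0.642; −0.617 within genotype and sex), Mrpl45 (−0.259; −0.825), Mrps26 (−0.215; −0.162) and Mrps9 (−0.104; −0.281). Mrpl33, the member with the highest level per kilobase, had values of 8.41, 8.82 and 9.29 in WT, 8.67, 9.04 and 9.32 in Ahr-/- and 8.40, 8.85 and 9.22 in Ahrr-/- samples, overlapping throughout, and its lowest samples, Ahrr-/- M3 and WT F1, were among the highest for the mean of all members. Mrpl33 and Mrps9 overlap another gene in the annotation.

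**Figure D4:**
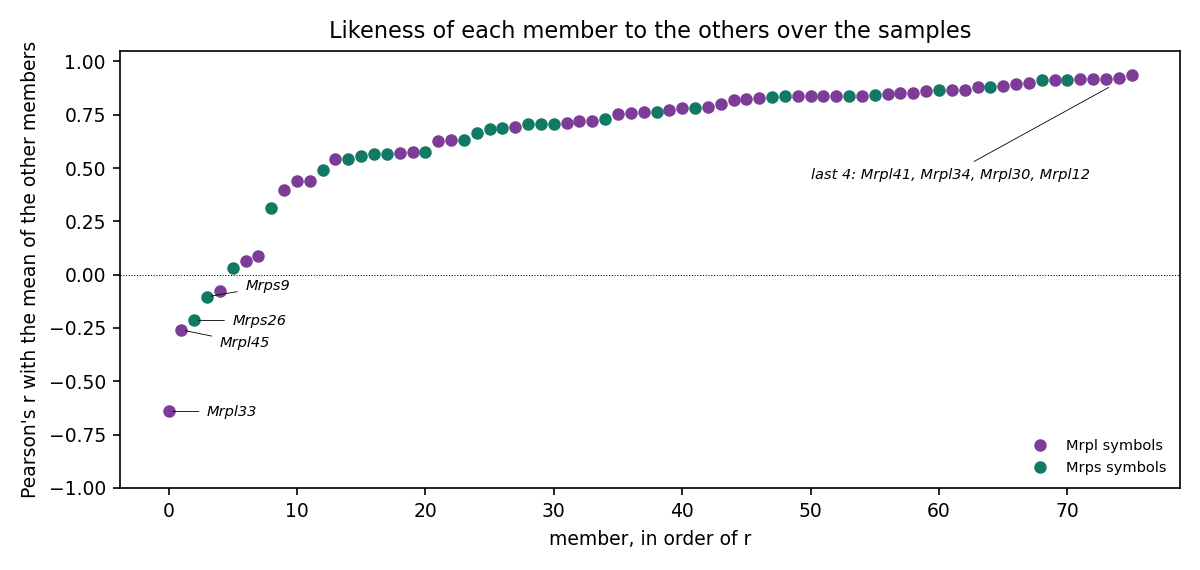
Pearson's r of each of the 76 tested members with the mean of the other members over 18 samples (vertical), with the members in order of r (horizontal) and coloured by Mrpl or Mrps symbol. Most members lie at high positive values, up to 0.936 for Mrpl12, while Mrpl33 lies apart at −0.642.

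The mean of the members was set beside other measures of the same 18 libraries, as a description. It followed the mean of nuclear oxidative phosphorylation genes closely (r = 0.970; 0.969 within genotype and sex), in WT (0.997), in Ahr-/- (0.781) and in Ahrr-/- samples (0.979). It also followed summed enterocyte markers (0.846; 0.762), and less evenly Paneth cell markers (0.700; 0.638), goblet cell markers (0.668; 0.423) and T cell markers (0.631; 0.562). In WT, Ahr-/- and Ahrr-/- samples in turn, r was 0.953, 0.707 and 0.831 for enterocyte, 0.546, 0.0315 and 0.953 for Paneth cell, 0.833, 0.215 and 0.544 for goblet cell and 0.378, 0.733 and 0.741 for T cell markers. It ran against summed macrophage markers (−0.753; −0.813), with −0.923, −0.0967 and −0.708 by group, and eosinophil markers (−0.606; −0.393), with −0.954, −0.538 and −0.369. The macrophage sum was mostly that of Adgre1 and Itgax (WT medians 8382 and 6862), which intestinal eosinophils also express, and does not stand for the list. Gene by gene, 7 of 10 macrophage markers were higher in Ahrr-/- than in Ahr-/- samples (median difference −0.71), 8 of 10 higher in Ahrr-/- than in WT and 7 of 10 higher in males, the direction of most members. Cytosolic ribosomal protein genes gave 0.654 (0.905), with 0.909, 0.261 and 0.933 by group. Genes for expression and upkeep of mitochondrial DNA gave 0.665 (0.517), with 0.915, 0.0514 and 0.620 by group. Summed dividing cell markers gave 0.509 (0.317), with 0.910, 0.0379 and 0.287. Total count (0.220) and the number of genes with a count (0.0418) gave low values over all 18 samples. By group these were 0.0850, −0.228 and 0.442 for total count, and 0.0218, 0.544 and −0.126 for the number of genes. All of these points share depth and normalization, and which measure the members follow was not tested.

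**Figure D5:**
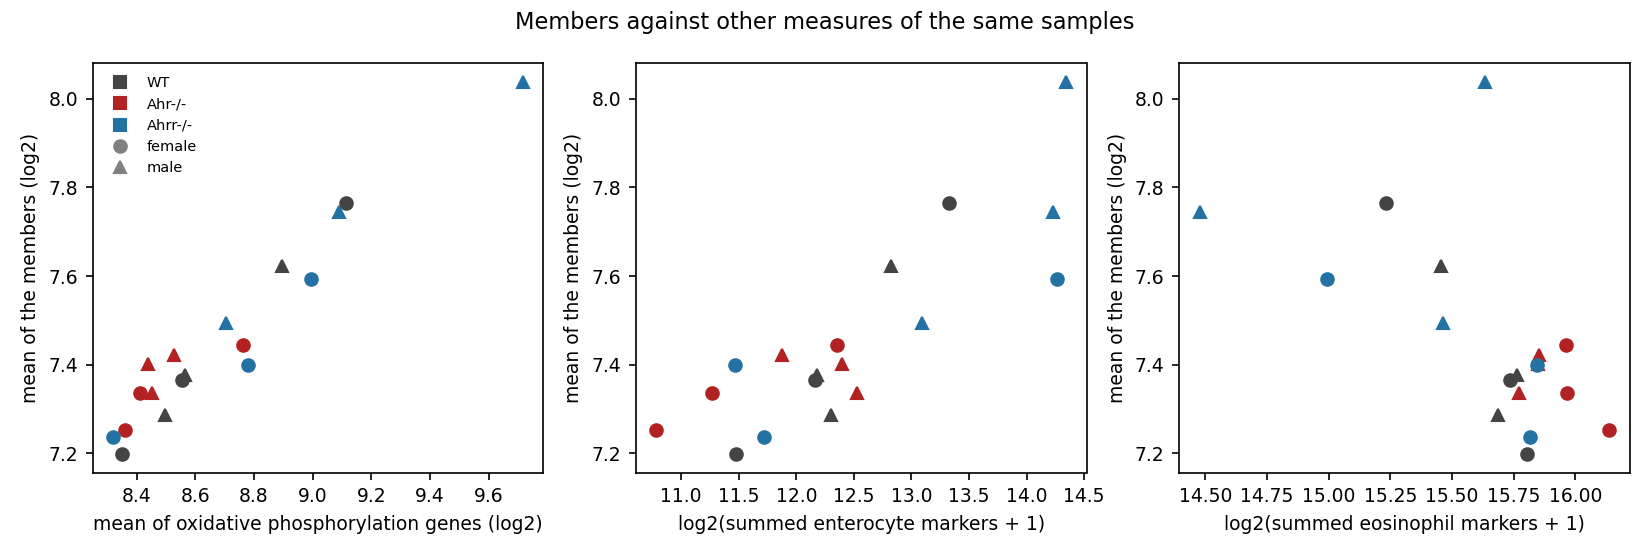
Mean of the 76 members in each sample (vertical, deposited log2 scale) against the mean of nuclear oxidative phosphorylation genes and against the log2 of summed normalized counts plus 1 of enterocyte and of eosinophil markers. Over 18 samples r was 0.970, 0.846 and −0.606.

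Nuclear oxidative phosphorylation genes, which encode the imported subunits of the complexes that mitochondrial ribosomes complete, numbered 96 with 8 complex I assembly factors and 1 pseudogene; 86 were tested. Between the mutant groups 84 of 86 values were lower in Ahr-/- (median −0.45). Of the 86, limma called 15 (17.4%, against 14.9% of all genes tested), 14 of them higher in Ahrr-/-. That count was 2 without any one of Ahr-/- F1, M1, M2 or M3 or Ahrr-/- F3 or M3, 3 without Ahr-/- F2, 6 without Ahrr-/- M1, 29 without Ahrr-/- M2, 34 without Ahr-/- F3 and 55 without Ahrr-/- F1. WT and Ahr-/- samples differed in 3 of 86, 2 of them higher in WT (median 0.19). That is 3.49%, against 8.84% of all genes tested. The count was 6 without WT F2 and 1 without WT F3 or Ahr-/- F1, F2 or M3. WT and Ahrr-/- samples differed by limma in 0 (5 at unadjusted p below 0.05, limma voom 0; median −0.27).

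Cytosolic ribosomal protein genes had another pattern. Between WT and Ahr-/- samples 37 of 75 were called by limma (49.3%, against 8.84% of all genes tested), all lower in WT, with a median of −0.44. The count was 21 without WT F2, 16 without WT F3, 20 without WT M2, 17, 18 and 14 without Ahr-/- F1, F3 or M3, and 4 without both samples with the most genes. Neither comparison with Ahrr-/- samples called any by limma: 0 of 75 against WT (0 at unadjusted p below 0.05, limma voom 0; median −0.29) and 0 of 74 against Ahr-/- (0 and 0; median 0.16; 8 without Ahrr-/- M1). The members' medians in these 3 comparisons were 0.09, −0.16 and −0.23. Between sexes, limma called 0 of 75 cytosolic ribosomal protein genes (1 at unadjusted p below 0.05, limma voom 0; median −0.01). For nuclear oxidative phosphorylation genes it called 1 of 86 (median 0.13), a count of 2 without WT F1 or Ahrr-/- F3 and kept at 1 only without WT F3, WT M1, Ahr-/- F3 or Ahrr-/- M1.

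Genes that work with the mitochondrial ribosome were counted by function. Of 24 assembly factors tested, 1 was called by limma between WT and Ahr-/- samples (7 at unadjusted p below 0.05, limma voom 2): Ddx28, an RNA helicase that takes part in assembly of the large subunit. Its values were 8.89, 9.11 and 9.43 in WT, 7.26, 7.73 and 8.26 in the samples labelled Ahr-/- and 8.40, 9.15 and 10.01 in those labelled Ahrr-/-. All 6 samples labelled Ahr-/- lay below every other sample. Ddx28 fell in Ahr-/- against WT (1.38, WT minus Ahr-/-, SE 0.14; limma adjusted p = 7.27e-06) and against Ahrr-/- (−1.39; limma adjusted p = 0.000192), and both calls held without any single sample. It was also the only assembly factor called between the mutant groups; against Ahrr-/-, WT samples showed 0 of 23 (1 at unadjusted p below 0.05, limma voom 0).

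Of 9 nuclear regulators of mitochondrial genes, 2 were called between WT and Ahr-/- and 3 between the mutant groups by limma. These are 22.2% and 33.3% of a short list, against 8.84% and 14.9% of all genes tested. Myc, which drives ribosome production, had values of 8.85, 9.01 and 9.51 in WT, 9.78, 10.07 and 10.44 in Ahr-/- and 8.43, 8.63 and 9.37 in Ahrr-/- samples. It was higher in all 6 Ahr-/- samples than in any other (−0.99, WT minus Ahr-/-, limma adjusted p = 3.63e-05; 1.31, Ahr-/- minus Ahrr-/-, limma adjusted p = 0.000232), also without any single sample. Ppargc1a, a coactivator of mitochondrial biogenesis, ran the other way, with 7.08, 7.45 and 8.50 in WT, 6.19, 6.85 and 7.09 in Ahr-/- and 6.36, 8.13 and 8.89 in Ahrr-/- samples. Its differences were 0.87 (limma adjusted p = 0.0183; 0.0533 without Ahr-/- F1, and 0.154 with all 18 samples in the fit, the 1 of 11 other alternatives that lost the call) and −1.17 (limma adjusted p = 0.0241; 0.0564, 0.0574 and 0.0598 without Ahr-/- F1, M1 or M3, 0.0594 without Ahrr-/- M3, and lost in 1 of 10 other alternatives, without the sex covariate). In each, 5 of 6 WT or Ahrr-/- samples lay above every Ahr-/- sample. Its relative Ppargc1b was also higher in Ahrr-/- than in Ahr-/- samples (−0.46; limma adjusted p = 0.0408), a call kept only without Ahr-/- F3 or Ahrr-/- F1, F2 or M1 (adjusted p up to 0.0969) and in 5 of 10 other alternatives. Between WT and Ahrr-/- samples 0 of 9 were called by limma (1 at unadjusted p below 0.05, limma voom 0).

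Of 21 genes for expression and upkeep of mitochondrial DNA, Polg, the catalytic subunit of its polymerase, was the only one called by limma in a genotype comparison. Its values were 8.18, 8.36 and 8.48 in Ahr-/- and 6.94, 7.75 and 7.95 in Ahrr-/- samples, groups that did not overlap (0.71; limma adjusted p = 0.00958), also without any single sample. Against WT, limma called 0 of 21 in both Ahr-/- (2 at unadjusted p below 0.05) and Ahrr-/- samples (1), and limma voom 0. Among 13 translation factors, limma called 0 in each of the 3 genotype comparisons (2, 0 and 3 at unadjusted p below 0.05, limma voom 0), with Guf1 (−0.36, WT minus Ahr-/-; limma adjusted p = 0.0775) and Gfm2 (0.44, Ahr-/- minus Ahrr-/-; 0.0852) the furthest in the first and the last. For 20 mitochondrial tRNA synthetases and amidotransferase subunits the counts were likewise 0 (0, 0 and 2 at unadjusted p below 0.05, limma voom 0). They were also 0 for 4 proteins of the mitochondrial ribosome with other names (1, 0 and 1, limma voom 0). With 1 sample left out, Guf1 and Gfm2 were each called in 1 of 12 fits (lowest limma adjusted p 0.0361 and 0.0394). Chchd1, among those 4 proteins, was called between the mutant groups in 2 of 12 (lowest limma adjusted p 0.0397).

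Between sexes, limma called Ptcd3, a small-subunit protein with another name (0.35, male minus female; adjusted p = 0.0465), the prolyl-tRNA synthetase gene Pars2 (0.42; 0.0434) and Gabpb1, a subunit of an ETS-family regulator of mitochondrial genes (−0.62; 0.0434). For Ptcd3, 9 of 9 males lay above the female mean, and the same held for Pars2, while for Gabpb1 9 of 9 females lay above the male mean. Each call was lost when most single samples were left out: Ptcd3 kept it only without WT F1, WT M1 or Ahrr-/- F3, Pars2 without WT F1, F3, M1 or M2, and Gabpb1 without WT F1, F3 or M1 or Ahrr-/- F3, with adjusted p up to 0.0998, 0.0973 and 0.104. Limma voom called Pars2 and Gabpb1 but not Ptcd3, and the other alternatives kept the call in 4 of 10 for Ptcd3, 5 of 9 for Pars2 and 7 of 10 for Gabpb1, none of them in WT samples alone. Limma called 0 translation factors, assembly factors and genes for mitochondrial DNA (4, 5 and 4 at unadjusted p below 0.05, limma voom 0). With 1 sample left out, the genes for mitochondrial DNA Tfb2m and Tfam were called in 3 and 2 of 18 fits. The translation factors Mtrf1 and Mtrf1l and the assembly factor Ddx28 were called in 1 each. Tfb2m was also called in 1 of 9 other alternatives.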

How the data were processed

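RNA-seq was analysed in 18 samples, 6 per genotype. Per the submitters' processing notes, reads were aligned and counted with STAR 2.5.2 and RSEM 1.3.0 on GRCm38 (mm10), with DESeq2 in R 4.0.3. The deposited values are log2-scale, variance-stabilized by the authors, with a lowest value of 5.02. Their inverse gave whole counts for 100% of 408697 values (tolerance 0.0001). The library kit does not mark strand, so genes that overlap, as 25 of the 78 members do, and copies cannot be fully told apart; the annotation holds 5 pseudogenes named after members.

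Genes with a mean at least 1 above the lowest value were fitted with limma 3.58.1 (mean-variance trend) in R 4.3.3, on the groups compared, with sex as a covariate; sexes were compared over all 18 samples with genotype. P-values were Benjamini-Hochberg adjusted over all genes tested, and an adjusted p below 0.05 is called. limma voom on recovered counts was an alternative; others changed minimum, scaling, trend, block, samples and covariate. The fit was also tested on simulated data, the outcome of which is not given here. Leaving out both samples with the most genes, and the alternatives for correlations, were chosen after seeing the data. Other values came from Python 3.11.15 (pandas 2.3.3, numpy 2.4.6), figures from matplotlib 3.10.9.

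Named members are those called, the 4 largest differences per direction and genotype comparison, those with groups that did not overlap, and the 4 most and 4 least correlated with the others; in other lists, called genes or, in lists without any, those with the largest differences. Members and lists were chosen with earlier results of these data known. Lengths are medians over transcripts of the GENCODE basic annotation.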

Additional observations from a re-analysis of the deposited data

Results flagged for a closer look

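In the 78 groups of 6 tested (each of 25 named members, and the mean of the members, in each genotype), 4 held a sample far from the others, with a gap to its neighbour above 0.625 of the range of the group. Chance gives about 1 in 20 groups. Mrpl41 read 6.60 in Ahr-/- F2, the lowest of its group, where the next sample read 7.00. Mrpl44 read 5.74 in the same sample, where the next read 6.30. Mrps26 read 7.51 in Ahr-/- F3, the highest of its group, where the next read 7.18. Mrps35 read 8.23 in Ahrr-/- M3, the highest of its group, where the next read 7.63.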

How the results depend on the processing

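No comparison changed direction in a call. Members called between WT and either mutant stayed at 0 under every alternative run. Of genes called between WT and Ahr-/- (1003), 553 were called with all 18 samples in the fit, 586 without the 2 samples with the most genes, and 623 to 1124 with 1 sample left out. Between WT and Ahrr-/- (9 genes) it was 4 with no minimum mean, median centring, log2(count + 1) or limma voom, 5 with a minimum of 3 or quantile normalization, 14 with all 18 samples, and 4 to 25 with 1 left out. Between the mutants, members called (5) were 1 with no minimum mean or a minimum of 3, which leaves 12 members, 3 with median centring, 2 with quantile normalization, all 18 samples or no sex covariate, and 1 to 10 with 1 left out; genes called (1708) were 828 with a minimum of 3, 994 without the sex covariate, and 818 to 2574. Between sexes, members called (2) were 1 with no minimum mean, quantile normalization or without the 2 samples, 0 with a minimum of 3 or WT samples only, and 1 to 3; genes called (351) were 163 with no minimum mean, 5 in WT samples only, and 142 to 733. Medians over members with 1 sample left out were 0.01 to 0.13, −0.26 to −0.10, −0.28 to −0.14 and 0.05 to 0.17. The median of the interaction, −0.05, changed sign with quantile normalization (0.01), a minimum of 3 (0.00) or without WT F1 (0.11) or WT M1 (0.03). Causes were not tested, beyond the fewer samples or genes that some alternatives use.

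With the replicate label as a block in place of sex, 4 genes were called between WT and Ahrr-/-, and 7 members between the mutants. Same-numbered samples did not deviate together throughout (correlations of deviations from −0.585 to 0.476). The 2 samples with the most genes, WT F3 and Ahr-/- F3, do share a number. Whether the numbers mark a shared preparation is not given by the labels, and these correlations cannot settle it. The samples were treated as unpaired and nothing was crossed.

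Depth limits the lowest members: a tested member had as few as 4 counts in a sample, and as a ratio of counts only 50 of 76 intervals between the mutants stayed within 2-fold. A p that misses the threshold does not show that values did not differ.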
